A study of Actinidia chinensis with 12 samples.

Results

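The whole fruit of 2 kiwifruit cultivars, Hongyang and Jinyan, was compared by RNA sequencing, with 3 Hongyang and 3 Jinyan libraries chosen by the cultivar and tissue in their labels. These are 6 of the 12 libraries of the series; the other 6 are from the flesh core of the same cultivars. All samples were ripened fruit taken just after harvest from the tree, with no treatment, and no label gives the age of the trees or says whether a replicate is a fruit, a tree or a pool. P-values therefore measure the spread between these libraries, which may be technical. The labels name the tissue whole fruit; the series design instead mentions a periphery of the fruit, and the label is followed here.

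Hongyang is a red-fleshed cultivar of Actinidia chinensis whose colour comes from anthocyanins laid down around the core, and Jinyan is a yellow-fleshed cultivar bred from a cross of Actinidia eriantha with Actinidia chinensis. A whole kiwifruit combines skin, outer pericarp, inner pericarp with seeds, and core, so its RNA is a mixture of tissues. In such bulk RNA, fewer cells of a type and less RNA per cell cannot be told apart. The deposited table gives gene identifiers with the prefix Achn and does not pair them with gene names, so pigment, sugar, acid, ascorbate, cell wall, hormone and tissue marker genes could not be looked up and the labelled tissue could not be checked against markers. If alleles of 1 cultivar aligned less well than those of the other, their genes would be counted lower, and such a loss cannot be told apart from lower expression here.

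The Jinyan libraries held 6870519, 7575140 and 10030539 counts for replicates 1, 2 and 3. The Hongyang libraries held 11616051, 18405374 and 1888744 counts, so that Hongyang replicate 3 was the shallowest of the 6. In that library 3 counts, the limit that a count of 0 allows, correspond to 1.327 CPM (counts scaled to library size with TMM factors), against 0.185 CPM in Hongyang replicate 2. Of 39040 identifiers, 19334 passed the filter on low counts and were tested.

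The Hongyang libraries differed from each other far more than the Jinyan libraries did. Over the 10576 genes that averaged 10 CPM or more, 0.794%, 0.936% and 1.09% were more than 2-fold apart on the log2(CPM + 1) scale between Jinyan replicates 1 and 2, 1 and 3, and 2 and 3. The corresponding shares were 8.78% for Hongyang replicates 1 and 2, 18.7% for replicates 1 and 3, and 36.1% for replicates 2 and 3. Across the cultivars, Hongyang replicate 1 was more than 2-fold apart from a Jinyan library at 19.7 to 20.1% of these genes, replicate 2 at 23.6 to 24.9%, and replicate 3 at 35.1 to 36.2%. Hongyang replicates 2 and 3 were thus as far apart by this count as Hongyang replicate 3 and any Jinyan library.

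**Figure D1:**
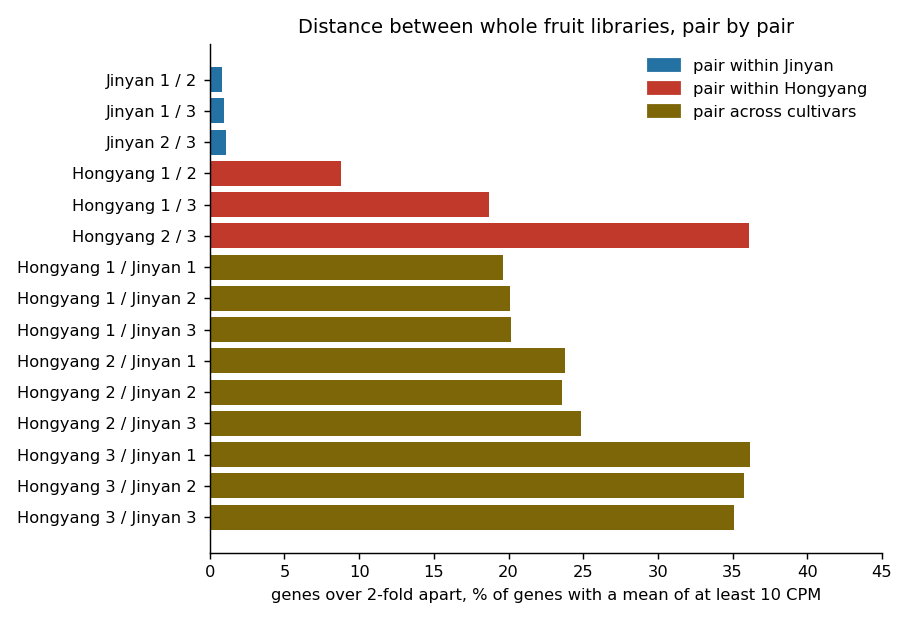
Percentage of the 10576 genes averaging 10 CPM or more that are more than 2-fold apart, on the log2(CPM + 1) scale, for each pair of whole fruit libraries. Pairs within Jinyan lie near 1%, pairs within Hongyang run from 8.78 to 36.1%, and pairs across the cultivars from 19.7 to 36.2%.

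With all 6 libraries thinned to 1888744 counts, Hongyang replicates 2 and 3 were more than 2-fold apart at 36.0% of the genes, against 2.56 to 3.41% for the Jinyan pairs. The biological coefficient of variation (edgeR's estimate of the relative spread between libraries beyond counting error) was 0.473 in Hongyang whole fruit and 0.157 in Jinyan whole fruit. It was 0.335 in Hongyang without replicate 3, 0.462 without replicate 2 and 0.628 without replicate 1. In the flesh core the same estimate was 0.224 in Hongyang and 0.219 in Jinyan. The median gene had an SD of 0.487 on the log2(CPM + 1) scale in Hongyang and 0.199 in Jinyan whole fruit, and 15887 of 19334 genes (82.2%) had the larger SD in Hongyang.

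The genes on which Hongyang replicates 2 and 3 disagreed also differed between core and whole fruit in libraries not used to pick them. Among genes averaging 10 CPM or more in whole fruit, 2264 were more than 2-fold higher in replicate 2 than in replicate 3 when all 12 libraries were scaled together. Of these, 78.9% were higher in Jinyan core than in Jinyan whole fruit, with a median log2 difference of 0.42. A further 1255 genes were more than 2-fold higher in replicate 3, and 9.32% of those were higher in Jinyan core, with a median of -0.82. Among the 6419 genes within 2-fold, 60.1% were higher in Jinyan core. The Hongyang core libraries, set against Hongyang whole fruit replicate 1, gave the same order, with 80.6%, 15.2% and 50.7% of the 3 sets higher in core. The Spearman correlation across genes with the 3 Hongyang core libraries was 0.944 to 0.955 for whole fruit replicate 2, 0.910 to 0.926 for replicate 1 and 0.810 to 0.830 for replicate 3. This is also their order of depth, at 18405374, 11616051 and 1888744 counts. The correlations were taken at full depth, so they cannot separate likeness to core from depth. Whether the whole fruit samples held different amounts of core was not tested.

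A pair of genes, chosen by rule as those with the widest gap between Hongyang replicates 2 and 3 in each direction among genes averaging 50 CPM or more, shows how far single values moved. Achn369271 stood at 75.1, 87.6 and 0 CPM in Hongyang replicates 1, 2 and 3, from 921, 1419 and 0 counts, and at 49.5, 48.6 and 46.6 CPM in the Jinyan libraries. Only Hongyang replicate 3 was without reads of it. Achn008681 stood at 277, 37.3 and 1987 CPM in Hongyang and at 383, 407 and 251 CPM in Jinyan. The Jinyan values lay inside the Hongyang range for both genes, and neither passed the test of the cultivars (edgeR, adjusted p = 0.91 and 0.51).

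Against this spread, 2833 of the 19334 genes tested (14.7%) differed between the cultivars in whole fruit, 1529 higher in Hongyang (7.91%) and 1304 lower (6.74%). The test was edgeR's quasi-likelihood test on these 6 libraries alone, with a Benjamini-Hochberg adjusted p under 0.05 as the threshold. The median log2 fold change was 1.76 for the higher and -1.69 for the lower genes, with median standard errors of 0.34 and 0.33. Over all genes tested it was 0.03, with a median standard error of 0.37. The middle 50% of all genes lay between -0.52 and 0.62, which is under 2-fold in either direction.

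Genes with larger fitted differences passed more often. Of 14150 genes with a fitted difference under 2-fold, 298 (2.11%) passed, 145 higher and 153 lower in Hongyang. Between 2-fold and 4-fold, 1372 of 3622 genes (37.9%) passed, and between 4-fold and 8-fold, 509 of 846 (60.2%). Between 8-fold and 32-fold, 209 genes were higher and 178 lower among 449 tested. All 267 genes at 32-fold or more passed, 125 higher and 142 lower. The bands include genes that entered the test through 1 cultivar alone, which favours a call. Among them were 75 genes with 0 counts in Jinyan and 94 with 0 counts in Hongyang, all called. The share that passed thus depends partly on the filter wherever a band holds such genes. Where a cultivar had 0 counts, the fitted fold depends on edgeR's prior count and is no bound. A stricter test, of whether the difference exceeds 2-fold, was passed by 841 genes (4.35%), 455 higher and 386 lower in Hongyang (edgeR glmTreat, adjusted p under 0.05).

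**Figure D2:**
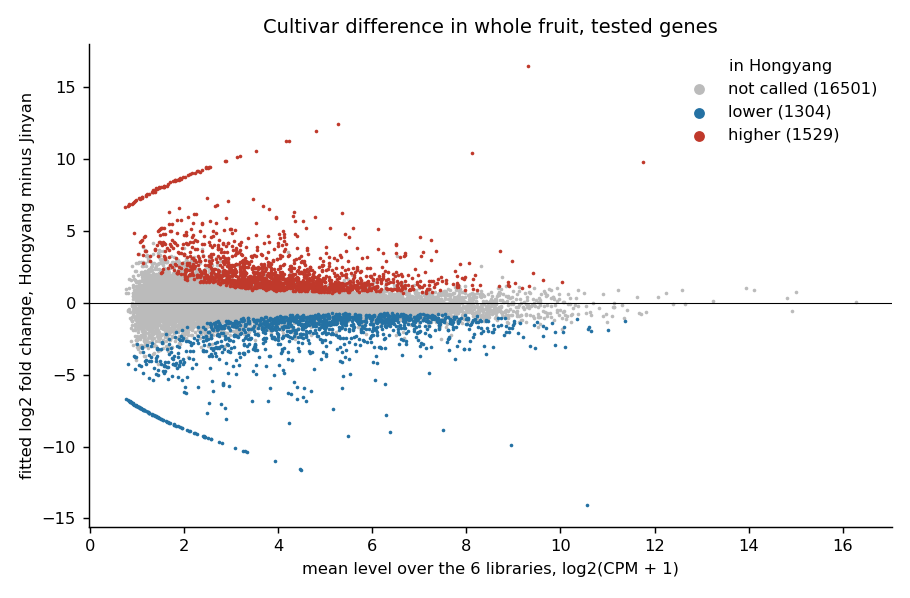
Fitted log2 fold change, Hongyang minus Jinyan, against the mean level over the 6 libraries as log2(CPM + 1), 1 point per tested gene. The 1529 genes called higher and the 1304 called lower lie on both sides of 0 at most levels, and the curved bands at the left edge are genes without counts in 1 cultivar, whose fitted values depend on edgeR's prior count.

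Called genes were found at each level of abundance, but the balance between the cultivars shifted with level. Under 1 CPM, 10 were higher and 24 lower in Hongyang of 131 tested, with a median absolute log2 fold change of 6.88. Of these 131 genes, 34 were called. A gene this low can pass the filter through 1 cultivar alone, which favours a difference, so the balance at this level is no result. Among genes with a mean of 1 to 10 CPM, 937 of 8627 (10.9%) were called, 578 higher in Hongyang and 359 lower, with a median absolute log2 fold change of 2.80. Among those of 10 to 100 CPM, 853 were higher and 695 lower of 9090 tested (17.0% called). The order turned at 100 to 1000 CPM, where 86 were higher and 216 lower in Hongyang of 1413 tested (21.4% called). At 1000 CPM or more, 2 were higher and 10 lower of 73 tested. The median absolute log2 fold change of the called genes was 1.43 at 10 to 100 CPM and 1.35 at 100 to 1000 CPM. The median standard error over all genes tested was 0.555 at 1 to 10 CPM and 0.287 at both of these levels. Low genes thus needed a larger difference to be called. Genes with 0 counts in 1 cultivar can also lie above 1 CPM.

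The same asymmetry shows in the share of each library's counts that the called genes held, given as a description because these libraries chose the genes. The genes called lower held 13.9%, 13.7% and 13.8% of counts in Jinyan replicates 1, 2 and 3, and 5.18%, 4.68% and 4.04% in Hongyang replicates 1, 2 and 3. The genes called higher held 8.21%, 7.82% and 8.59% of counts in Hongyang and 2.31%, 2.26% and 2.25% in Jinyan. The Hongyang libraries that disagreed elsewhere were close to each other in these sums.

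The 100 most abundant genes of each library held 36.7%, 42.1% and 39.4% of its counts in Hongyang and 35.0%, 35.8% and 36.1% in Jinyan. The Hongyang libraries all lay above the Jinyan libraries, with a two-sided exact permutation p = 0.1. This is the lowest p that groups of 3 can reach, and it was 0.2 after adjustment over 2 such measures. At equal depth, 21782, 21715 and 19172 genes had at least 1 count in Hongyang and 21473, 21780 and 21883 in Jinyan. These ranges overlapped (exact permutation p = 0.6), and Hongyang replicate 3 alone lay below the Jinyan libraries.

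Each Hongyang library lay on the called side for nearly all called genes. This is a description and no support, because the same libraries chose the genes. Among the genes called higher, all 1529 were above every Jinyan library in Hongyang replicates 1 and 2, and 1524 (99.7%) in replicate 3. All 1304 genes called lower were below every Jinyan library in each Hongyang library. Over all genes tested the libraries did not overlap for 7733 (40.0%), 3746 higher and 3987 lower in Hongyang, so lack of overlap was common beyond the called genes. The median log2(CPM + 1) of the genes called higher lay 1.53, 1.52 and 1.44 above the Jinyan mean in Hongyang replicates 1, 2 and 3. For the genes called lower it lay at -1.46, -1.42 and -1.89. With TMM scaling, replicate 3 was the lowest of the Hongyang libraries for 808 of the 1304 lower genes, and for 9792 of all 19334 genes.

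**Figure D3:**
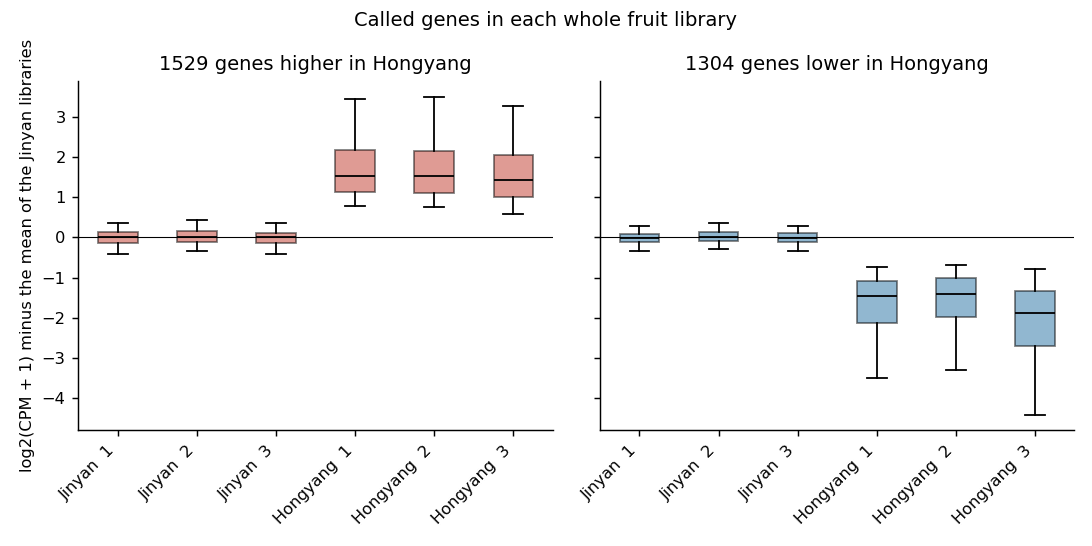
Difference of each library's log2(CPM + 1) from the mean of the Jinyan libraries, for the 1529 genes called higher (left) and the 1304 called lower in Hongyang (right). The same 6 libraries chose these genes, so the separation is a description. Boxes span the quartiles with the median as a line, and whiskers the 5th to 95th percentile; the 3 Hongyang medians lie between 1.44 and 1.53 on the left and between -1.89 and -1.42 on the right.

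Taken library by library, the Hongyang fruit stood apart from Jinyan in unequal ways. Replicate 1 had 1892 genes more than 2-fold above the highest Jinyan library and 1887 more than 2-fold below the lowest. Replicate 2 had 1952 above and 2307 below, and replicate 3 had 2622 above and 4711 below. Among the genes averaging 10 CPM or more the counts were 762 above and 857 below for replicate 1, 848 and 1164 for replicate 2, and 961 and 2224 for replicate 3. The balance rested on the scaling: with library totals in place of TMM, a setting added after seeing the data, these became 943 and 674, 696 and 1401, and 1625 and 1588. At equal depth with TMM they were 710 and 868, 819 and 1202, and 909 and 2064. The excess below Jinyan in replicate 3 was thus present at equal depth and absent without TMM, while replicate 2 had more genes below than above in each of these settings.

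Called genes disagreed less between Hongyang replicates 2 and 3 than other genes, which selection on the spread favours. Among genes averaging 10 CPM or more, 181 of 941 genes called higher (19.2%) and 289 of 921 called lower (31.4%) were more than 2-fold apart between them, against 36.1% of all genes at that level.

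The number of called genes rested on single libraries. It was 5595 without the shallow Hongyang replicate 3, 4122 without Hongyang replicate 2 and 1154 without Hongyang replicate 1. Without Jinyan replicate 1, 2 or 3 it was 761, 782 and 803. The split was 2883 higher and 2712 lower without Hongyang replicate 3, and it turned to 1914 higher and 2208 lower without replicate 2. With both left out, an alternative chosen after seeing the data in which replicate 1 is assumed to vary like the Jinyan libraries, 3111 were higher and 3385 lower. Of the 2833 genes, 2831 remained called in the same direction without replicate 3, 2605 without replicate 2 and 1125 without replicate 1, and none was called in the opposite direction. With all 12 libraries in 1 fit, whose spread also draws on the tighter core libraries, 5502 of 22199 genes (24.8%) were called.

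A smaller set did not depend on any single library. The test was passed without each of the 6 libraries in turn by 629 of the 2833 genes (22.2%), 335 higher and 294 lower, with median log2 fold changes of 2.92 and -2.82. Under each of the other tests, scalings, filters and depths, the replicate block and every left-out library, 544 genes stayed called in the same direction, 287 higher and 257 lower. A gene that an alternative did not test counts as not kept. Only 14043 genes were tested at a mean of at least 5 CPM and 14037 at equal depth, so low genes could drop out untested.

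**Figure D4:**
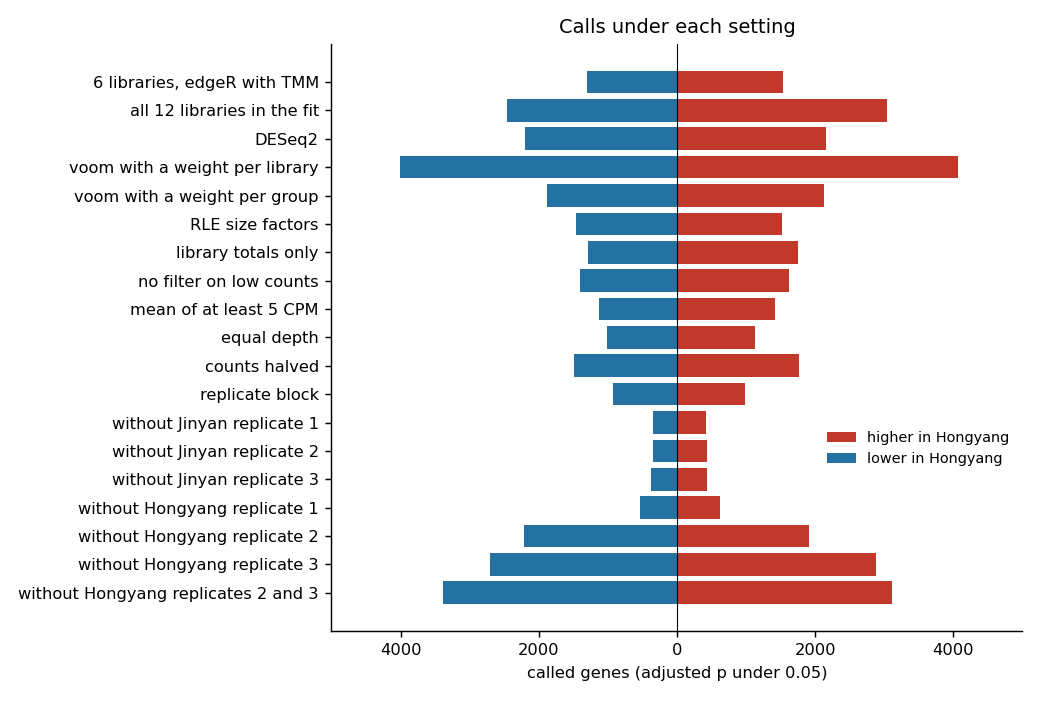
Genes called higher (right of 0) and lower (left of 0) in Hongyang whole fruit under each setting, at an adjusted p under 0.05. The fit of these 6 libraries gave 1529 and 1304, and the totals run from 761 without Jinyan replicate 1 to 8085 with limma voom and a weight per library.

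Achn125831 and Achn125851 had the largest difference in mean CPM in each direction, among called genes whose libraries did not overlap, and their identifiers lie 20 apart in number. Achn125831 stood at 4597, 7394 and 8674 CPM in Hongyang replicates 1, 2 and 3 and at 5.56, 9.15 and 8.35 CPM in the Jinyan libraries. Its log2 fold change was 9.80 ± 0.55 (SE; edgeR, adjusted p = 3.2e-04), higher in 3 of 3 libraries. Achn125851 stood at 3202, 2227 and 3690 CPM in Jinyan and at 0.408, 0 and 0 CPM in Hongyang, where replicate 1 had 5 counts and the others none. It passed the filter on low counts through Jinyan alone, so its call was largely fixed in advance and is no support. Its log2 fold change was -14.05 ± 0.87 (SE; edgeR). The value depends on those 5 counts: it was -17.63 without Hongyang replicate 1, where the group is at 0 and the value is no bound, and -13.08 without replicate 2.

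Each cultivar thus had reads at 1 of these 2 identifiers almost alone. Achn125831 held 0.173 to 0.409% of the summed CPM of both in Jinyan and at least 99.99% in Hongyang. The sum was 3208, 2236 and 3699 CPM in Jinyan and 4597, 7394 and 8674 CPM in Hongyang, which is 1.51, 2.43 and 2.85 times the Jinyan mean. How reads with several possible alignments were counted is not stated in the sources used here, and whether both identifiers share sequence was not tested.

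Achn288361 stood at 799, 2169 and 840 CPM in Hongyang whole fruit (1270 ± 779 CPM, SD, n = 3) and had 0 counts in each Jinyan library. It was at least 9922-fold higher in Hongyang, taking 3 counts over the Jinyan libraries as the limit. It passed the filter on low counts through Hongyang alone, so its call was largely fixed in advance and is no support. Leaving out Hongyang replicate 2 lowered the bound to 6297-fold, and leaving out Jinyan replicate 3 lowered it to 5869-fold. Hongyang replicate 2 was the highest of its group and no library overlapped.

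Achn340321 stood at 2889, 3123 and 3734 CPM in Jinyan (3249 ± 436 CPM, SD, n = 3) and at 974, 773 and 931 CPM in Hongyang (893 ± 106 CPM, SD, n = 3). Its log2 fold change was -1.86 ± 0.30 (SE; edgeR, adjusted p = 0.0065), and it did not pass the test of a difference beyond 2-fold (adjusted p = 0.053). All 3 Hongyang libraries lay close together and below each Jinyan library.

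**Figure D5:**
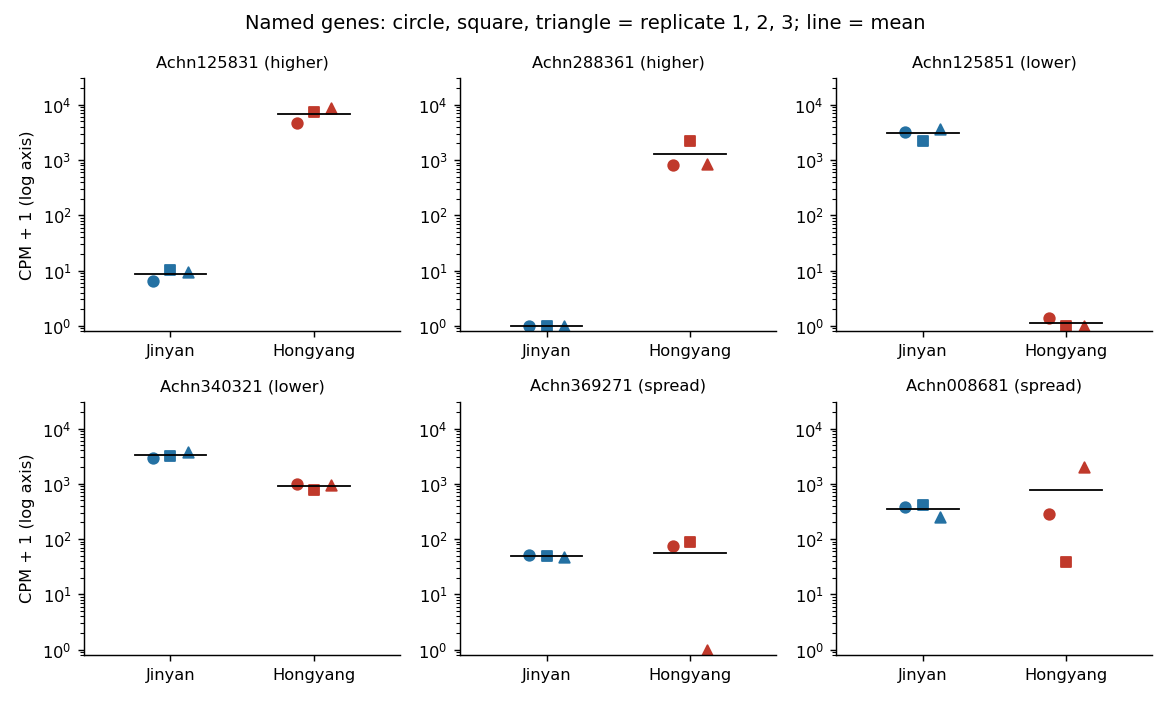
CPM + 1 on a log axis for the 6 genes named by rule, with 1 point per whole fruit library and the group mean as a line. Achn125831, Achn288361, Achn125851 and Achn340321 separate the cultivars, while Achn369271 and Achn008681 have Jinyan values inside the range of Hongyang, from 0 to 87.6 CPM and from 37.3 to 1987 CPM.

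Some genes had reads in every library of 1 cultivar and none in the other. With 0 counts in the 3 Jinyan whole fruit libraries, reads in each Hongyang library and a mean of at least 1 CPM there, 149 genes met this description, and 75 of them passed the filter on low counts. The reverse held for 189 genes, of which 94 passed the filter. Genes at 0 counts in 1 cultivar pass the filter through the other alone, which favours a call, so their calls are no support. All 75 and all 94 were called, and they are included in the 1529 higher and 1304 lower genes. In the flesh core, 87 of the 149 also had 0 counts in the Jinyan libraries and 97 of the 189 in the Hongyang libraries.

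The flesh core gives a second measurement of the cultivars, in libraries that the whole fruit calls did not use. In a separate edgeR fit of the 6 core libraries, 9060 of 20741 genes (43.7%) differed, 22.6% higher in Hongyang and 21.0% lower. Of the genes called higher in whole fruit, 1487 were tested in core, and 1134 (76.3%) were called higher and 18 lower there. Of the genes called lower, 1248 were tested, and 971 (77.8%) were called lower and 34 higher. Over all genes tested in whole fruit and core, 22.3% were called higher in core and 22.1% lower. The median log2 fold change in core was 1.32 for the higher genes, against 1.72 in whole fruit, and -1.29 for the lower genes, against -1.63. Whole fruit chose the genes, which enlarges its medians. The genes called higher include the 75 without counts in Jinyan whole fruit, and those called lower the 94 without counts in Hongyang whole fruit. The core shares without them were not computed.

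Larger differences in whole fruit were more often called in core too. Of the genes called higher with a fitted difference under 2-fold, 50.3% were called higher in core, and the share was 73.4% at 2-fold to 4-fold, 83.4% at 4-fold to 8-fold, 88.4% at 8-fold to 32-fold and 90.3% at 32-fold or more. For the genes called lower the shares were 65.4%, 77.3%, 77.4%, 81.1% and 94.3%. Of the 335 higher genes that held without each library in turn, 305 of 329 tested in core (92.7%) were called higher there and none lower. Of the 294 such lower genes, 256 of 286 (89.5%) were called lower in core and 5 higher. The bands and these sets can hold genes without counts in the whole fruit of a cultivar. Of the 149 such genes in Jinyan and the 189 in Hongyang, 87 and 97 also had none in that cultivar's core. These can pass the core filter through the other cultivar alone, which favours a call, so their core calls are no support. The shares without them were not computed. Whether poorer alignment of a cultivar's alleles recurred in core was not tested.

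Whether the difference between the cultivars itself changed between whole fruit and core was tested by the interaction in a fit of all 12 libraries, which called 500 of 22199 genes (2.25%). Among the genes called in whole fruit, 109 of 1529 higher (7.13%) and 103 of 1304 lower genes (7.90%) passed. For 85 of the 109 and 93 of the 103 the difference was smaller in core or turned. Over all genes tested in whole fruit, 483 passed the interaction test, and the same held for 357 of them. The whole fruit libraries enter both tests, which by itself favours such genes, and the shared spread of that fit is below that of Hongyang whole fruit.

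Among the 4 genes named for the cultivar difference, 3 kept their direction in core and did not pass the interaction test. For Achn288361 and Achn125851 that test cannot decide, since 1 cultivar was at or near 0 in both tissues. In core, Achn125831 stood at 25470, 8343 and 10820 CPM in Hongyang and at 5.03, 28.3 and 15.1 CPM in Jinyan. Achn125851 stood at 1649, 4942 and 4839 CPM in Jinyan core and at 0.395, 0.948 and 0.167 CPM in Hongyang core. Achn288361 had 0 counts in Jinyan core and stood at 4188, 1232 and 2495 CPM in Hongyang core.

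Achn340321 turned between the tissues. In core it stood at 1582, 2711 and 3359 CPM in Hongyang and at 505, 975 and 1324 CPM in Jinyan, so that the Hongyang libraries were the higher ones (log2 fold change 1.45; edgeR, adjusted p = 0.010). The interaction, core minus whole fruit, was 3.30 on the log2 scale (edgeR, adjusted p = 0.0066). The whole fruit libraries that chose this gene also enter the interaction test, which favours a pass. The shared spread of that fit is below that of Hongyang whole fruit.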

How the data were processed

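Total RNA was extracted with CTAB, and poly(A) RNA was fragmented, primed with random hexamers and sequenced as paired ends, per the labels' protocols, which name no strand-marking step. The submitters' processing notes list Trimmomatic 0.36 for trimming and HISAT2 2.1.0 for alignment. Counting program, genome build and annotation were each not given in the sources used here. The deposited table holds raw counts per gene and library. Even numbers made up 56.2 to 60.3% of counts from 1 to 20, as would arise if both mates were counted, in which case counting error is larger than the counts show. A limit set from 0 counts covers counting error alone.

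The 6 whole fruit libraries were fitted alone with edgeR 4.0.16 in R 4.3.3 (filterByExpr, TMM, glmQLFit, glmQLFTest, two-sided), since Hongyang whole fruit varied more than the other groups. CPM are TMM-scaled; log2(CPM + 1) is used for library distances, and genes without reads were counted on library totals. Standard errors are the absolute log2 fold change over the square root of F. Within each cultivar, replicates differed beyond sampling noise, with a chi-square over its degrees of freedom from 6.10 to 138.

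The rule for naming genes took the 2 in each direction with the largest difference in mean CPM, among called genes without overlap, and 1 gene in each direction with the largest gap between Hongyang replicates 2 and 3. The comparison, rules and alternatives were chosen with earlier results of these data known. Alternatives were DESeq2 1.42.0, limma 3.58.1 (voom), other scalings, filters and depths, a replicate block, and leaving out each library. Lists of genes by function were not used, since the identifiers carry no names.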

Additional observations from a re-analysis of the deposited data

Results flagged for a closer look

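Achn340321 was lower in Hongyang whole fruit in 3 of 3 libraries and higher in Hongyang core in 3 of 3. The difference of the differences, core minus whole fruit, was 3.30 on the log2 scale (edgeR on all 12 libraries, adjusted p = 0.0066). The whole fruit libraries that chose the gene also enter that test, which favours a pass, and its shared spread is below that of Hongyang whole fruit. The other genes named for the cultivar comparison did not pass that test (adjusted p = 0.63 to 1). For Achn288361 and Achn125851 it cannot decide, since 1 cultivar was at or near 0 in both tissues.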

How the results depend on the processing

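The counts of called genes moved with the test and the libraries more than with scaling or filters. Called genes numbered 3041 higher and 2461 lower in Hongyang with all 12 libraries in 1 fit, 4070 and 4015 with limma voom and a weight per library, 2157 and 2196 with DESeq2, and 2124 and 1880 with voom and a weight per group. Leaving out each library gave 420 to 2883 higher and 341 to 2712 lower. With Hongyang replicates 2 and 3 left out, chosen after seeing the data, 3111 and 3385 were called. The test beyond 2-fold gave 761 higher and 610 lower with 12 libraries, 287 and 243 at equal depth, 781 and 811 with replicate 1 as the lone Hongyang library, 132 to 813 and 118 to 698 without each library, and 250 lower at a mean of at least 5 CPM. With the replicate number as a block, 980 and 931 genes were called, and 289 and 240 beyond 2-fold. Deviations of Hongyang and Jinyan libraries with the same number correlated at 0.051, 0.103 and 0.152 across genes, each library correlating best with its own number; no label says that numbers mark a shared source, and they were not treated as pairs. With library totals only, the median gene lay at 0.13 instead of 0.03 (log2), and 57.5% of called genes were higher instead of 54.0%. The mean number of genes detected, lower in Hongyang, turned to 545 higher at a minimum of 5 counts and to 36.5 higher without Hongyang replicate 3 (-1268 to 36.5 over all left-out libraries). The 4 genes named for the cultivars kept direction and call in all 18 alternative fits, 72 results over the 4 genes. For Achn340321 the adjusted p rose to 0.049 (edgeR without Jinyan replicate 2). These genes were picked for large differences among called genes, which favours kept calls. Achn288361 and Achn125851 also passed the filter through 1 cultivar alone, so their kept calls are no support. The cause of the shifts in the counts of called genes was not tested. In Hongyang replicate 3, 3 counts stand for 1.327 CPM, which limits what can be seen below that level.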

Other observations

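The opposite behaviour of Achn125831 and Achn125851 prompted a count over identifiers with nearby numbers, chosen after the values were seen. Numbers of listed identifiers rise in steps of 10 in 99.8% of cases, and nothing in the table says that they follow position in the genome. Among 10051 pairs of tested genes 20 apart in number, both were called in 260, in the same direction in 112 and in opposite directions in 148. Among 10464 pairs 10 apart, both were called in 275, in the same direction in 174 and in opposite directions in 101. Both members passed the test beyond 2-fold in 27 pairs that were 20 apart, 12 of them opposite, and in 30 pairs that were 10 apart, 9 of them opposite. Where both genes of a pair were called, 36.7% of pairs 10 apart and 56.9% of pairs 20 apart were opposite, with no test of the difference. Over all genes tested, 14.65% were called, and 53.97% of the called genes were higher in Hongyang. The share of opposite pairs among called genes paired at random was not computed, so no pattern is read from these counts.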
